A study of Rattus norvegicus with 16 samples.

Results

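Meningeal and fibroblast matrix genes were followed in rat cortex after a fluid percussion injury. The members were 6 genes, Col1a1, Col1a2, Col3a1, Ogn, Dcn and Lum, taken as every probe set on the arrays whose only gene symbol was one of these. They were read by 11 probe sets of 31099, or 6 genes of the 14218 that had a probe set with a single symbol. Ogn was read by 4 probe sets, Col1a1 and Col1a2 by 2 each, and Col3a1, Dcn and Lum by 1 each. The genes were chosen by their measured differences between injured cortex at 3, 6 or 12 h and the early shams, known from earlier work on these data, so the values at those times are given as a description with no test.

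The study profiled lateral cortex of male Wistar rats, 8 weeks old, on 16 arrays. Moderate fluid percussion, a pulse of fluid pressed onto the exposed dura, was delivered to injured animals, and sham animals had the operation alone. Every animal, sham or injured, had been craniectomized over the right parietal cortex 48 h earlier and was perfused with saline before the contused area, or the matching area, was cut out and its polyadenylated RNA taken. Injured cortex was sampled at 3, 6, 12 and 48 h with 3 arrays at each time, the 48 h sham had 1 array, and the early shams were 3 arrays, 1 each at 3, 6 and 12 h, which the study treated as 1 control. The sampled time and the age of the skull opening rise together in these animals, so between times they cannot be told apart. Each array carries its own number, but separate animals are not named in the labels, so p-values measure only the spread between these arrays. The labels do not describe whether meninges were stripped from the cortex.

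Type I collagen is built from the chains encoded by Col1a1 and Col1a2, and type III collagen from that of Col3a1; both form the fibrils of connective tissue. Decorin (Dcn), lumican (Lum) and osteoglycin (Ogn) are small leucine-rich proteoglycans, which coat collagen fibrils and set their width and spacing. In the brain these genes are mainly those of fibroblasts in the meninges and around larger vessels, while neurons and glia make little fibrillar collagen.

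In RefSeq's GRCr8 rat assembly Col1a2 lies at chr4:33518557-33553484, Col3a1 at chr9:54866646-54902578, Col1a1 at chr10:80380458-80397461 and Ogn at chr17:15238500-15259167. Dcn at chr7:34167973-34208004 and Lum at chr7:34245323-34252510 are separated by 37.3 kb. The promoter windows below, 300 bases each, are those of the 3 genes that a RefSeq promoter matched. They are printed 5′ to 3′, mostly upstream of a RefSeq transcript start and ending just past it. That start need not be the end of the gene span, as the Lum window and most of the Ogn window lie inside the spans given above. RefSeq promoters in GRCr8 matched 3 of the 6 genes, at chr4:33518307-33518606 (plus strand) for Col1a2, chr7:34245456-34245755 (plus strand) for Lum and chr17:15258946-15259245 (minus strand) for Ogn. The capitals mark matches of CCAAT or TATAAA on either strand.
Col1a2: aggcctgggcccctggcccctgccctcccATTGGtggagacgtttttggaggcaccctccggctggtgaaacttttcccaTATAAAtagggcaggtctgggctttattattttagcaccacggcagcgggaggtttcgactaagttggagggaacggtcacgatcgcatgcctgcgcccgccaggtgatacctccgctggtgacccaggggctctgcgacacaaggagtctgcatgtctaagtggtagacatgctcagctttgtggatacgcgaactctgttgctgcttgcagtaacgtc
Lum: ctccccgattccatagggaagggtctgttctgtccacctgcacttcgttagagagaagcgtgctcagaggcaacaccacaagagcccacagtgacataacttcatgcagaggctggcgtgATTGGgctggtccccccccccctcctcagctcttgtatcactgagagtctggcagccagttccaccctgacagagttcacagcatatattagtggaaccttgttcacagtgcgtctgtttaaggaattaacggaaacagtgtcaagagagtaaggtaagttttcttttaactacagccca
Ogn: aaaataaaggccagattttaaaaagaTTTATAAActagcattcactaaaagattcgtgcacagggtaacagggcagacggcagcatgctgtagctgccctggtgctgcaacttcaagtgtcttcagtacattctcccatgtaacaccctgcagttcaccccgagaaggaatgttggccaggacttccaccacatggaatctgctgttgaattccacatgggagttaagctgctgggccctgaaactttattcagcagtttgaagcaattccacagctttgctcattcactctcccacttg

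CCAAT was present in Col1a2 and Lum, on the minus strand of each window (printed as ATTGG), from positions -221 and -130 relative to the transcript start of the window. TATAAA was present in Col1a2, from position -170, and in Ogn, where a match on each strand, from -224 and -222, overlaps the other. Of 33469 promoters of this length 37.5% held CCAAT and 14.2% TATAAA on either strand. GGGCGG, the GC box, was in 33.1% of all promoters on either strand. TGANTCA, the site of AP-1 factors, was in 7.33%. CAGACA, a Smad element, was in 21.1%. None of these last motifs was matched in any of the 3 windows (0 of 3 for each).

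Values are deposited log2 intensities in which the median of every probe set over the 16 arrays is 0, averaged over the probe sets of a gene. They carry differences between arrays and neither absolute level nor detection, so levels are not compared between genes and the cortex label cannot be checked against marker levels. Differences come from 1 limma fit of all 16 arrays in 6 groups, with p-values adjusted by Benjamini-Hochberg over 14218 genes, and "called" means an adjusted p below 0.05. Cortex is a mixture, so fewer cells of a type and less RNA per cell cannot be told apart.

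Injured 12 h array 2 stands apart, with polyadenylated spike-in controls at -1.33, against -0.14 to 0.39 elsewhere. The spread of all probe sets was widest on that array (SD 0.352) and on injured 48 h array 2 (0.347), against 0.191 to 0.28 on the others. Injured 48 h array 2 also had the highest mean of the 6 genes (1.6). Ttr, a choroid plexus gene, was at 5.16 and 5.98 on injured 3 h arrays 2 and 3 and 5.49 on injured 12 h array 3, against -0.81 to 1.97 on the other 13 arrays. The haemoglobin gene Hbb was at -0.71 to 2.71 on injured arrays of 3 to 12 h and -2.20 to -1.50 on those of 48 h, against -2.70 on the 48 h sham and -2.57 to -1.29 on the early shams. No pair of arrays was identical (smallest root mean square difference 0.202).

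The fibrillar collagens were lower on early injured arrays than on the shams. Col1a2 was at -0.59, -1.11 and -0.80 on the 3 h injured arrays, -1.08, -1.08 and -0.12 at 6 h, 0.12, -0.93 and -0.37 at 12 h and 0.68, 1.79 and 1.33 at 48 h, against 1.73 on the 48 h sham and 0.56, 1.12 and 1.80 on the early shams of 3, 6 and 12 h. All 9 injured arrays of 3 to 12 h lay below all 4 shams, and the 48 h injured arrays overlapped them. The difference from the early shams was -2.0 ± 0.37 at 3 h, -1.93 ± 0.37 at 6 h and -1.56 ± 0.37 at 12 h (SE, 3 arrays a group), and both probe sets had the same sign at each.

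Col3a1 was at -0.71, -1.17 and -0.96 on the 3 h injured arrays, -1.56, -1.36 and -0.24 at 6 h, 0.67, -0.98 and -0.17 at 12 h and 1.65, 2.58 and 1.24 at 48 h, against 2.50 on the 48 h sham and 0.17, 1.36 and 1.74 on the early shams. The 3 and 6 h arrays were below every sham, whereas 12 h array 1 exceeded the 3 h sham. Its difference from the early shams was -2.04 ± 0.48 at 3 h, -2.14 ± 0.48 at 6 h and -1.25 ± 0.48 at 12 h.

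Col1a1 was at -0.38, -0.20 and -0.28 on the 3 h injured arrays, -0.46, -0.10 and -0.12 at 6 h, 0.02, -0.25 and -0.14 at 12 h and 0.65, 1.28 and 1.10 at 48 h, against 1.16 on the 48 h sham and 0.25, 0.54 and 1.25 on the early shams. All 9 injured arrays of 3 to 12 h were below every sham, and the injured 48 h range held the 48 h sham. The differences from the early shams were -0.96 ± 0.21, -0.91 ± 0.21 and -0.80 ± 0.21 at 3, 6 and 12 h. Its 2 probe sets differed in size, -1.29 ± 0.33 for 1388116_at and -0.64 ± 0.14 for 1370864_at at 3 h.

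Of the proteoglycans, Ogn was lower on the early injured arrays, and Dcn overlapped the shams. Ogn was at -0.22, -0.62 and -0.40 on the 3 h injured arrays, -1.06, -0.98 and 0.45 at 6 h, -0.52, -1.39 and -0.52 at 12 h and 0.44, 1.48 and 0.70 at 48 h, against 1.71 on the 48 h sham and 0.47, 0.95 and 1.03 on the early shams. Every injured array of 3 to 12 h was below every sham, by a narrow margin for 6 h array 3, and its differences from the early shams were -1.23 ± 0.37, -1.35 ± 0.37 and -1.63 ± 0.37 at 3, 6 and 12 h. Across its 4 probe sets the 12 h difference ran between -1.92 and -1.48. The separation of 6 h array 3 from the shams held for their average and not for each probe set. That array was at 1.20 in 1385248_a_at, above the 3 and 12 h shams (0.97 and 0.59), and at 0.25 in 1376749_at, above the 3 h sham (0.14).

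Lum was at 0.35, -0.02 and -0.12 on the 3 h injured arrays, -0.63, -0.51 and 0.02 at 6 h, -0.47, -1.35 and -0.37 at 12 h and 1.19, 1.30 and 0.93 at 48 h, against 1.30 on the 48 h sham and -0.09, 0.30 and 0.29 on the early shams. The groups overlapped at 3 and 6 h, and at 12 h all injured arrays were below the early shams. The differences from the early shams were -0.10 ± 0.24, -0.54 ± 0.24 and -0.90 ± 0.24 at 3, 6 and 12 h.

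Dcn was at -0.98, 0.04 and -0.04 on the 3 h injured arrays, 0.41, -1.52 and -0.47 at 6 h, 0.26, -1.84 and -0.51 at 12 h and 0.52, 1.19 and 0.17 at 48 h, against 0.23 on the 48 h sham and 0.07, -0.15 and -1.12 on the early shams. Injured and sham arrays overlapped at 3, 6 and 12 h, and the 12 h sham, highest of the early shams in Col1a1, Col1a2, Col3a1 and Ogn, was the lowest in Dcn. The differences were 0.07 ± 0.55, -0.13 ± 0.55 and -0.30 ± 0.55, each within 1 SE.

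**Figure D1:**
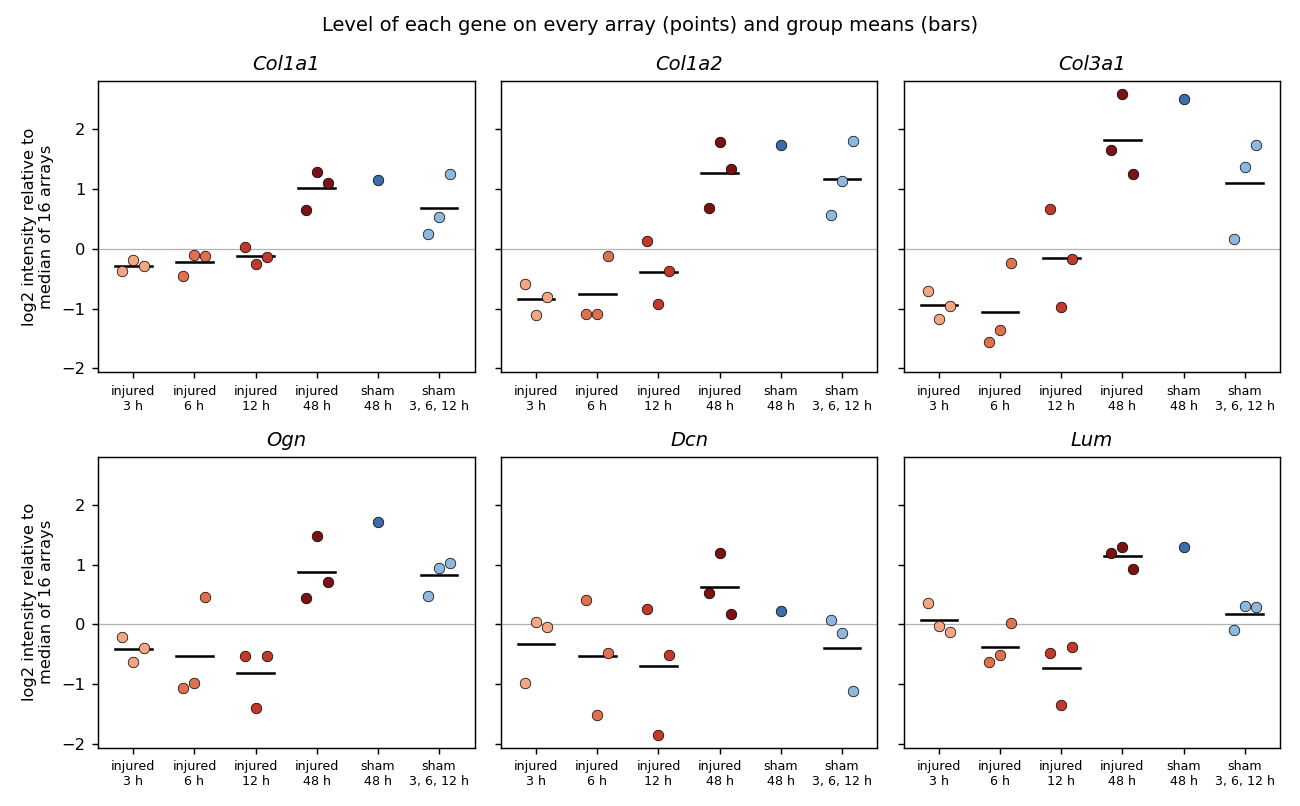
Each panel plots 1 gene, with the deposited log2 intensity relative to its median over 16 arrays on the vertical axis and the injured groups in order of time, then the 48 h sham and the early shams, along the horizontal axis (points are arrays, bars group means). For Col1a1, Col1a2 and Ogn all 9 injured arrays of 3 to 12 h sit below the 4 shams, while the Dcn groups overlap at those times.

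At 3 h 4 of the 6 genes (Col1a1, Col1a2, Col3a1 and Ogn) lay below all early shams without overlap, against 10.3% of all genes, and the same 4 did so at 6 h, against 12.8%. At 12 h the 4 were Col1a1, Col1a2, Ogn and Lum, against 11%. The genes were chosen on these same differences, so the choice fixes these counts in part and nothing is read from them. The 3 comparisons share their sham arrays. Without injured 12 h array 2 the 12 h differences were -0.74 for Col1a1, -1.29 for Col1a2, -0.84 for Col3a1, -1.34 for Ogn, 0.28 for Dcn and -0.59 for Lum.

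At 48 h none of the 6 genes was called between injured cortex and its own sham. The differences between the 3 injured arrays and the 1 sham of 48 h were -0.15 ± 0.30 for Col1a1, -0.46 ± 0.52 for Col1a2, -0.68 ± 0.69 for Col3a1, -0.84 ± 0.53 for Ogn, 0.40 ± 0.77 for Dcn and -0.16 ± 0.34 for Lum (SE). In limma 0 of 6 were called (adjusted p between 0.776 and 0.953), 0 had an unadjusted p below 0.05, and 0% of all genes were called in this comparison. The lone sham is assumed to vary as the other groups do, and the call misses differences of less than several SE.

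Against the early shams the 48 h injured cortex was higher in Lum, by 0.97 ± 0.24 (limma, adjusted p = 0.0216), with all 3 injured arrays above all 3 shams. This was 1 of 6 genes called higher, against 6.37% of all genes called higher and 3.32% called lower. The early shams took part in the choice of the genes, so this comparison is given as a description. The call held without 48 h array 3 (adjusted p = 0.0178) and was lost without 48 h array 1 (0.069) or 2 (0.0941) or without the 3 h (0.0781), 6 h (0.0518) or 12 h sham (0.0508), with all 4 shams as control the difference was 0.69 (adjusted p = 0.17), and with quantile normalization 0.51 (adjusted p = 0.249). Dcn, also without overlap, differed by 1.03 ± 0.55 (adjusted p = 0.266), so 2 of 6 genes lay above all early shams, against 14.7% of all genes.

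The other 4 genes were at differences of 0.33 ± 0.21 (Col1a1), 0.10 ± 0.37 (Col1a2), 0.73 ± 0.48 (Col3a1) and 0.06 ± 0.37 (Ogn) from the early shams at 48 h, none of them called by limma. Probe sets of a gene disagreed here, 0.67 ± 0.33 for 1388116_at and -0.01 ± 0.14 for 1370864_at of Col1a1, and 0.58 ± 0.48 for 1376749_at and -0.46 ± 0.47 for 1385248_a_at of Ogn.

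The 48 h sham itself was on the high side of the early shams in every gene. As the early shams took part in the choice of the genes, this too is a description. The differences were 0.48 for Col1a1, 0.57 for Col1a2, 1.41 for Col3a1, 0.90 for Ogn, 0.63 for Dcn and 1.13 ± 0.34 for Lum, and Col3a1, Ogn, Dcn and Lum were above all 3 early shams on this 1 array. In limma 0 of 6 were called (adjusted p between 0.521 and 0.918; 1 of 6, Lum, had an unadjusted p below 0.05), and 0.00703% of all genes were.

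**Figure D2:**
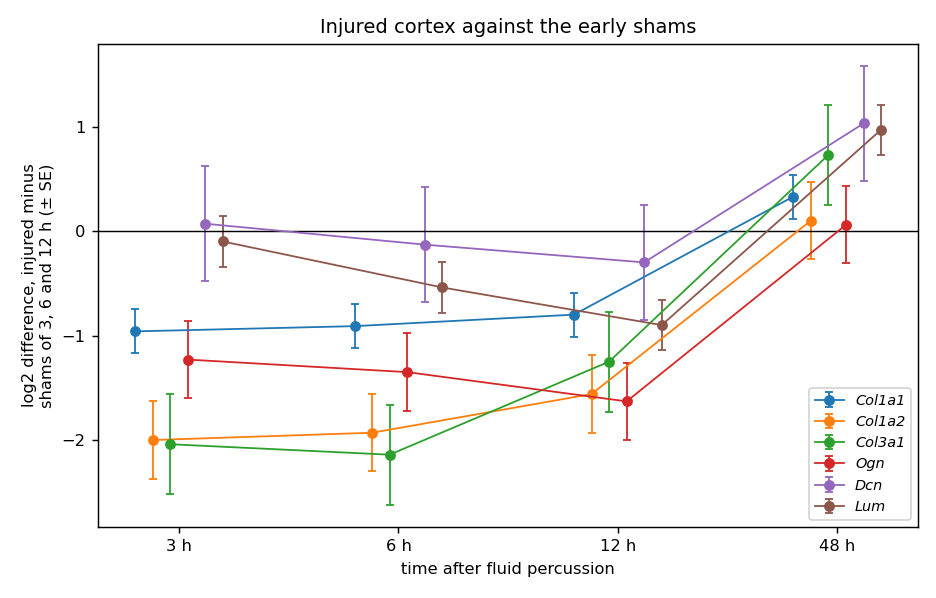
The vertical axis gives the log2 difference of each gene, injured minus the 3 early shams (± SE from the limma fit), at each time after fluid percussion, which are evenly spaced on the horizontal axis. Col1a2 and Col3a1 lie near -2 at 3 and 6 h, Dcn near 0 until 12 h, and all 6 points are above 0 at 48 h.

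Between consecutive times in injured cortex the largest differences of the 6 genes were those from 12 to 48 h. From 3 to 6 h, differences (6 h minus 3 h) lay between -0.44 and 0.07 and 0 of 6 were called by limma (adjusted p at least 0.42, 0 of 6 with an unadjusted p below 0.05), against 1.2% of all genes. The 12 h minus 6 h differences lay between -0.36 and 0.89, the highest in Col3a1, with 0 of 6 called (adjusted p at least 0.625, again 0 of 6 unadjusted), against 0.0141%.

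From 12 to 48 h the differences (48 h minus 12 h) were 1.13 ± 0.21 for Col1a1, 1.66 ± 0.37 for Col1a2, 1.98 ± 0.48 for Col3a1, 1.69 ± 0.37 for Ogn, 1.32 ± 0.55 for Dcn and 1.87 ± 0.24 for Lum. In 5 of 6, all but Dcn, every 48 h array was above every 12 h array, against 13.3% of all genes, and these 5 were called higher, against 8.19%. The 12 h arrays took part in the choice of the genes, so these counts are a description. Col3a1 was no longer called without 12 h array 2 or 48 h array 2, and Dcn was called without 12 h array 1 (difference 1.80). The difference between injured and sham at 48 h (own sham) minus that at 12 h (early shams) was 0.57 to 1.10 over the 6 genes, negative differences being nearer 0 at 48 h in all but Dcn, and limma called none of these (adjusted p at least 0.649).

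Across arrays Col1a1, Col1a2, Col3a1, Ogn and Lum were high and low together, and Dcn less so. Over 16 arrays the 10 pairs without Dcn correlated at a Pearson r of 0.76 to 0.97 (median 0.89) and a Spearman rho of 0.67 to 0.96, and the 5 pairs with Dcn at 0.37 to 0.60 (rho 0.32 to 0.42). Without the 2 arrays farthest from the median the ranges of r were 0.68 to 0.96 and 0.28 to 0.49. The arrays share their group, which alone makes genes of like time course correlate, and r is given as a description.

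With each array set against its own group mean (15 arrays in 5 groups, the 48 h sham left out and the early shams of 3, 6 and 12 h taken as 1 group) the 10 pairs without Dcn had r of 0.33 to 0.89 (median 0.79) and the 5 pairs with Dcn -0.20 to 0.26. Col1a2 and Col3a1 stood at 0.89, Col1a2 and Ogn at 0.88, Col3a1 and Ogn at 0.86 and Col3a1 and Lum at 0.82, while Col1a1 and Lum stood at 0.33. Dcn and Lum, which adjoin on chromosome 7, stood at 0.26. Without 12 h injured array 2 the ranges were 0.31 to 0.87 and -0.31 to 0.08.

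Set against the mean of the other 5, deviations correlated at 0.87 for Col3a1, 0.85 for Ogn, 0.83 for Col1a2, 0.78 for Lum, 0.47 for Col1a1 and 0.18 for Dcn. The highest array of each group in Col1a2 was injured 3 h array 1, 6 h array 3, 12 h array 1, 48 h array 2 and, among the early shams, that of 12 h. The same arrays were the highest of their groups in Col3a1.

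**Figure D3:**
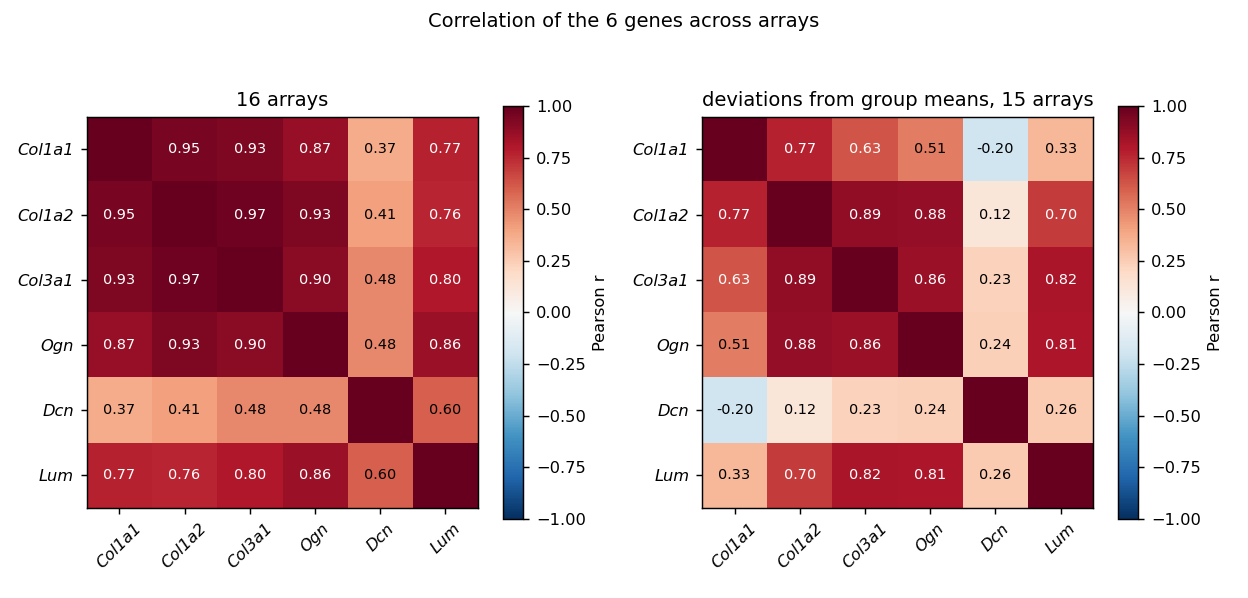
Pearson r between the 6 genes over the 16 arrays (left) and over deviations of 15 arrays from their group means (right), on a colour scale from -1 to 1 with r printed in each cell. The Dcn row and column are the palest in both, and the cells among Col1a2, Col3a1 and Ogn are 0.86 or higher in both.

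The mean of the 6 genes on each array summarises this. It was -0.46 ± 0.05 at 3 h, -0.58 ± 0.44 at 6 h, -0.49 ± 0.58 at 12 h and 1.12 ± 0.42 at 48 h in injured cortex, against 1.44 on the 48 h sham and 0.59 ± 0.31 on the early shams (SD, n = 3 where given). Arrays within a group differed most at 12 h, where array 1 was at 0.01 and array 2 at -1.12, and least at 3 h.

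Other meningeal and fibroblast markers, 40 of 44 listed genes measured under the symbol listed, moved with the 6. For r with the mean of the 6, each gene of a list was scaled to an SD of 1 before the list was averaged, so that no single variable gene carries it, and the r of the plain log2 mean is given beside it where stated. The scaled mean of these 40 had r = 0.93 over 16 arrays (rho 0.93, and 0.89 without the 2 farthest arrays) and 0.79 over deviations from group means, and the plain mean 0.96 and 0.87. Over deviations 30 of the 40 genes had a positive r, against 47.6% of all other genes, and so had 11 of 13 endothelial, 13 of 18 basement membrane and 7 of 10 astrocyte genes. The plain mean ranged between -0.17 and -0.11 at 3 h, -0.31 and -0.09 at 6 h, -0.16 and 0.03 at 12 h and 0.24 and 0.47 at 48 h in injured cortex, against 0.46 on the 48 h sham and 0.00 to 0.21 on the early shams. Whether the amount of meninges attached to each piece of cortex differed was not tested.

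Of the 12 most variable genes of that list, Gjb2, the gap junction protein connexin 26, followed the 6 most closely from array to array (0.94 over 16 arrays and 0.84 over deviations). Ptgds, the prostaglandin D2 synthase of the arachnoid, had 0.76 in both forms, and Pdgfra, a receptor of fibroblasts and of oligodendrocyte precursors, had 0.76 and 0.73. Islr, which marks fibroblasts, had 0.93 and 0.71, and Crabp2, a retinoic acid binding protein, 0.77 and 0.60. The lowest of the 12 in both forms was Fbln2, an elastic fibre protein, with 0.18 and -0.03.

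The same markers were counted in the comparisons with the early shams. At 3 h 0 of 40 were called either way (limma; median difference -0.10, against -0.01 over all genes). At 6 h 0 were called higher and 2 lower (0.682% of all genes), Ptgds (-1.09 ± 0.26) and Slc22a8, an organic anion transporter (-0.65 ± 0.15), with a median of -0.21, against -0.02 over all genes. At 12 h Slc22a8 (-0.63 ± 0.15) and Col8a1, a collagen chain of vessel walls (-0.82 ± 0.18), were called lower and Col6a3, a chain of type VI collagen (0.41 ± 0.09), higher, against 1.38% of all genes lower and 3.49% higher, with a median of -0.15, against -0.02.

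Most of these calls depended on single arrays. Ptgds at 6 h was called only without 6 h array 3, and Slc22a8 only without the 12 h sham. At 12 h Slc22a8 was lost without 12 h array 2 or the 3 or 6 h sham, Col8a1 without 12 h array 2, and Col6a3 without 12 h array 1 or 2 or the 6 or 12 h sham.

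At 48 h 3 of 40 were higher (6.37% of all genes) and 0 lower (3.32%) than in the early shams, with a median difference of 0.12, against -0.01 over all genes. Igfbp2, which binds insulin-like growth factors, was higher by 2.23 ± 0.22 (limma, adjusted p = 0.000234), Islr by 0.88 ± 0.23 (0.0273) and Col6a3 by 0.52 ± 0.09 (0.00496). The first and the last were called in all 6 fits that leave out an array, and Islr only without 48 h array 3. In the 48 h sham the same markers had a median difference of 0.21 from the early shams with 0 of 40 called. On that uninjured array Igfbp2 was at 0.85, between the early shams (-0.51 to -0.38) and the 48 h injured arrays (1.36 to 2.14). Islr was at 1.11 there, within the range of the 48 h injured arrays (0.96 to 1.20).

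**Figure D4:**
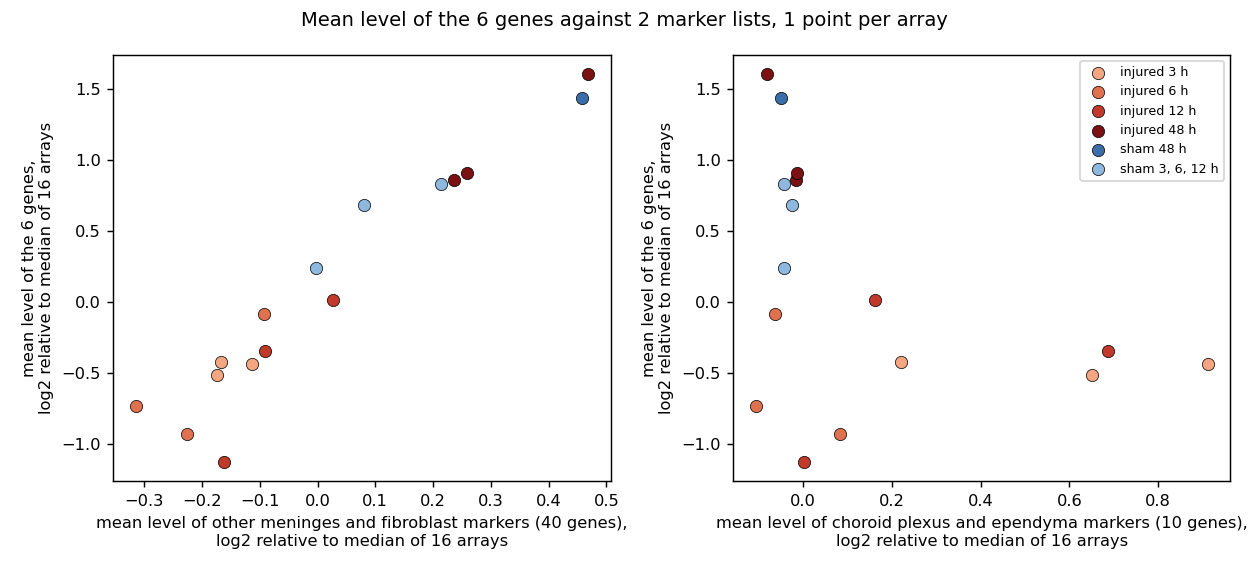
Each point is 1 array, with the mean level of the 6 genes on the vertical axes and the mean level of 40 other meningeal and fibroblast markers (left) or of 10 choroid plexus and ependyma markers (right) on the horizontal axes, all as log2 relative to the median of 16 arrays. On the left the points run along a rising band with the 48 h arrays at its upper end, and on the right the arrays with choroid plexus markers above 0.6 have the 6 genes below 0.

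Markers of other cell types were set beside the 6 genes in the same way. The scaled mean of 16 pericyte and smooth muscle genes correlated at 0.78 over 16 arrays and 0.05 over deviations from group means, and that of 7 microglial genes at 0.79 and 0.26. The 13 endothelial genes had 0.50 and 0.42 (plain mean 0.73 and 0.55), and 10 astrocyte genes 0.58 and 0.56 (plain mean 0.80 and 0.67). Choroid plexus and ependyma (10 genes) had -0.22 and -0.19, and their plain mean -0.41 and 0.10, so the sign over deviations turned with the scaling. Erythrocytes (3 genes) had -0.73 and -0.41, bone and cartilage (11 genes) -0.43 and -0.43, skeletal muscle (9 genes) -0.23 and -0.45, neurons (12 genes) -0.01 and -0.11, oligodendrocytes (9 genes) -0.57 and -0.18, and monocytes and neutrophils (11 genes) -0.35 and -0.11.

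Of the 18 lists the other meningeal and fibroblast markers had the highest r over arrays and over deviations, scaled or plain. The microglial mean was between 1.18 and 1.64 at 48 h in injured cortex, against 0.51 on the 48 h sham and 0.02 to 0.42 on the early shams, and the pericyte mean was 0.27 to 0.32 at 48 h, against 0.15 on the 48 h sham and -0.01 to 0.04 on the early shams. The part of any cell type in the course of the 6 genes was not tested.

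**Figure D5:**
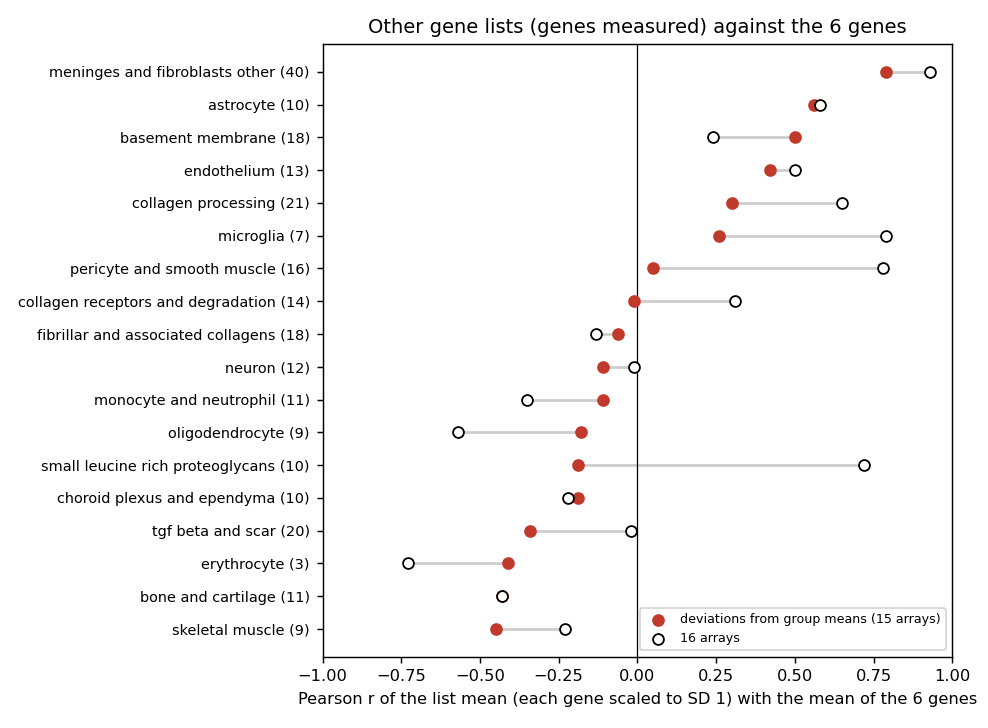
Pearson r between the mean of the 6 genes and the mean of each list of other genes, each list gene scaled to an SD of 1 (number measured in parentheses), over 16 arrays (open circles) and over deviations of 15 arrays from group means (filled circles). The other meningeal and fibroblast markers stand at 0.93 and 0.79, and the small leucine-rich proteoglycans at 0.72 and -0.19 (plain means 0.86 and 0.19).

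The genes most like the 6 were ranked by r with their mean among 7103 genes with above-median spread. Over 16 arrays the first 12 had r of 0.90 to 0.96 and were Aldh1a2, Colec12, Tspan8, Gjb2, Nupr1, Islr, Fstl1, Slc13a3, Ocln, Tnfaip8, Efemp1 and Serpinf1, of which 6 were on the meningeal list. Aldh1a2, a retinoic acid synthesis enzyme of the meninges, had r = 0.96 and differences from the early shams of -0.49, -0.57, -0.41 and 0.32 at 3, 6, 12 and 48 h. Colec12, a scavenger receptor, had r = 0.95 and differences of -0.85, -1.38, -1.36 and 0.24, and Tspan8, a tetraspanin, r = 0.95 and -1.14, -1.92, -1.59 and 0.48.

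Over deviations from group means the first 12 had r of 0.83 to 0.92 and were Slc6a20a, Rrp8, Pcmtd2, Mecom, Spart, Colec12, Fstl1, Gli4, Gjb2, Nupr1, Mdm4 and Sgf29. By exact symbol 1 of them, Gjb2, was on the meningeal list. Slc6a20a, first of the ranking, was not counted, as a list entry written Slc6a20 does not match that symbol. Colec12, Fstl1, Gjb2 and Nupr1 were in both rankings. Ocln, a tight junction protein, was at 0.91 over 16 arrays and 0.35 over deviations. The lowest r was that of Maff, Zfand2a, Rtn4rl1 and Arid5a over 16 arrays and of Rtn4rl1, Hexd, Chst8 and Dnajb13 over deviations.

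Neighbours of the 6 genes on their chromosomes were set beside them. Omd, a proteoglycan gene 7.5 kb from Ogn at chr17:15266646-15274870, correlated with the mean of the 6 at 0.87 over arrays and 0.74 over deviations, and Aspn (0.46 and -0.14) and Ecm2 (0.42 and -0.07) lie in the same stretch. Col5a2, a type V collagen chain 38.2 kb from Col3a1, had 0.87 and 0.61.

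The other genes of the collagen pathway were counted beside all genes. Of 18 other fibrillar and associated collagens 0 were called at 3 h, 2 higher at 6 h (1.98% of all genes) and 1 higher at 12 h (3.49%), with medians of 0.05, 0.06 and -0.03. Of the 6 fits that leave out an array, the 6 h calls were kept in 0 for Col9a3 and 1 for Col16a1. The 12 h call, Col6a3, was kept in 2. Col5a1, whose chain begins type I fibrils, differed by -0.04 ± 0.08, 0.05 ± 0.08 and -0.04 ± 0.08 at 3, 6 and 12 h. Col5a2, another type V chain of the list, correlated with the mean of the 6 at 0.87 over arrays and 0.61 over deviations. At 48 h 1 was called higher, Col6a3 (6.37% of all genes), and 2 lower (3.32%), with a median of 0.03. The 2 lower were Col11a2, called in 2 of the 6 fits, and Col19a1, called in 1. The scaled mean of these 18 had r = -0.13 with the mean of the 6 genes over arrays and -0.06 over deviations (plain mean -0.22 and 0.07).

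Of 10 other small leucine-rich proteoglycans 0 were called at 3 h and 1 lower at each of 6 and 12 h (0.682% and 1.38% of all genes). The medians were -0.06, -0.22 and -0.26 at 3, 6 and 12 h. The gene called lower was Omd, at -0.96 ± 0.20 (limma, adjusted p = 0.0197) and -1.34 ± 0.20 (0.0017). The 12 h call was kept in all 6 fits that leave out an array, and the 6 h call was lost without 6 h array 1 or 2 or the 6 or 12 h sham. At 48 h 1 of 10 was called higher (6.37% of all genes) and 0 lower (3.32%). The gene called was Prelp, which anchors basement membranes to connective tissue (1.01 ± 0.13, limma, adjusted p = 0.000962, kept in all 6 fits). Omd differed by -0.24 ± 0.20, and the median of the list was 0.04. Against the 48 h sham the differences of the 10 genes at 48 h lay between -0.48 and 0.54. On that uninjured sham the differences from the early shams lay between -0.21 and 0.72.

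Genes for collagen processing, 21 measured, had 0 calls at 3, 6 and 12 h (medians -0.01, -0.03 and 0.11). At 48 h 8 were higher (6.37% of all genes) and 0 lower (3.32%) than in the early shams, with a median of 0.24. Loxl1, a crosslinking enzyme, was higher by 0.74 ± 0.09 (limma, adjusted p = 0.000585), Plod1, a lysine hydroxylase, by 0.74 ± 0.16 (0.0128) and Serpinh1, the collagen chaperone HSP47, by 0.71 ± 0.15 (0.0116). Loxl1 was called in all 6 fits that leave out an array, Plod1 in all but that without the 6 h sham and Serpinh1 in all but that without 48 h array 2. The count of 8 was 3 without 48 h array 2 or the 6 h sham, 4 without the 3 h or the 12 h sham and 5 without 48 h array 1. Against the 48 h sham 0 of 21 were called, with a median of 0.11, against 0 over all genes. That uninjured sham itself had a median of 0.19 from the early shams, with 17 of 21 genes above them and 0 called. In injured 48 h cortex 14 of 21 were above the early shams.

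Basement membrane genes, 18 measured, had 0 calls at 3 h and 1 higher at 6 h (1.98% of all genes). At 12 h 2 were higher (3.49%) and 1 lower (1.38%), and at 48 h 1 was higher (6.37%). Lamc1, a laminin chain, was called higher at 6 h (1.07 ± 0.11) and 12 h (0.94 ± 0.11) in every fit that leaves out an array. At 12 h Col4a1, a type IV collagen chain, was higher (1.0 ± 0.23) and Col4a5 lower (-1.16 ± 0.23), the first lost without 12 h array 2 or any of the 3 early shams. The medians of the list were 0.04, 0.00, 0.06 and 0.13 at 3, 6, 12 and 48 h.

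Among 14 genes of collagen receptors and degradation 0 were called at 3 and 6 h, 2 higher at 12 h (3.49% of all genes) and 2 higher at 48 h (6.37%). Timp1, an inhibitor of matrix proteases, was higher at 12 h (2.50 ± 0.50, limma, adjusted p = 0.0113, and 0.0564 without 12 h array 2). Mmp2, a gelatinase of fibroblasts, was higher at 48 h (0.61 ± 0.11, called in all 6 fits that leave out an array). Itgb1 was called higher at both times, in 2 of the 6 fits at each. Against the 48 h sham the differences of the 14 genes at 48 h lay between -0.21 and 0.51. Among 20 genes of TGF-beta signalling and scar 0 were called at 3 h, 2 lower at 6 h (0.682% of all genes), 1 lower at 12 h (1.38%) and 2 higher at 48 h (6.37%). Sparc, a collagen-binding protein, was lower at 6 h (-0.71 ± 0.13, called in all 6 fits) and 12 h (-0.50 ± 0.13, called only without 12 h array 3). Ccn2, also lower at 6 h, was called in 0 of the 6 fits. At 48 h Tgfbr1, a TGF-beta receptor, was higher (1.05 ± 0.10, called in all 6 fits). Spp1 was also higher at 48 h, by 3.78 to 5.16 over the 6 fits, and was called only without 48 h array 3. On the uninjured 48 h sham the highest difference of this list from the early shams was 3.15. Between injured 48 h cortex and that sham the highest difference of the list was 1.2. The scaled mean of the receptor and degradation list had r of 0.31 with the 6 genes over arrays and -0.01 over deviations (plain mean 0.11 and -0.10), and that of the TGF-beta and scar list -0.02 and -0.34 (plain mean 0.22 and -0.15). Fn1, the fibronectin gene, ran between -0.96 and -0.54 at 3 h, -0.96 and -0.06 at 6 h, -0.45 and 1.17 at 12 h and 0.16 and 1.12 at 48 h in injured cortex, against 0.30 on the 48 h sham and -0.54 to 0.79 on the early shams.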

How the data were processed

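The deposited table holds 1 log2 value per probe set and array, made by the authors with RMA per the submitters' processing notes. The base of the log is not written there and is taken as 2; the deposited values have a median of 0 per probe set, and the step that centred them is not given in the sources used here. Probe sets with 1 symbol in the array annotation (20832 of 31099) were averaged by gene. The number of arrays, 16, limits the precision. Groups were compared in limma 3.58.1 (R 4.3.3) with lmFit and eBayes, adjusted by Benjamini-Hochberg; the fit was tested on simulated data. Alternatives were other probe set summaries, normalizations, controls, weights and priors, each array left out and a replicate block. Named beside the 6 genes were the 12 most and 4 least like them, up to 3 called genes each way per list and the 12 most variable meningeal markers. The members and lists were chosen with earlier results of these data known. Replicate numbers in the labels did not pair the arrays (r of deviations between same-numbered arrays -0.19 to 0.26, median -0.01).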

Additional observations from a re-analysis of the deposited data

Results flagged for a closer look

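Against the early shams, all 3 injured arrays lay on 1 side at an early time and all 3 on the other side at 48 h in Lum and in 4 of the most variable meningeal markers. Only the 6 genes and the 12 most variable of those markers were searched. The share of all genes with such a switch was not computed, and a choice by spread over the same arrays favours it. These contrasts share the early shams, and the 48 h sham, an uninjured array, was above all early shams in the same 5 genes (at 1.30 in Lum, 1.0 in Slc13a4, 1.11 in Islr, 1.22 in Serpinf1 and 1.75 in Efemp1). Lum differed by 0.97 at 48 h and -0.90 at 12 h, and the difference between these is the 48 h minus 12 h step of 1.87 ± 0.24, called in the fit although the 12 h arrays took part in choosing Lum. Slc13a4, a sulphate transporter, differed by 0.23 at 48 h and -0.75 at 6 h. Its lowest 48 h injured array, at 0.16, was barely above the highest early sham, at 0.15. Islr differed by -0.62 at 3 h, -0.76 at 6 h and 0.88 at 48 h. Serpinf1, which encodes an inhibitor of vessel growth, differed by -0.86, -1.03, -0.81 and 0.66 at 3, 6, 12 and 48 h, and its 48 h minus 12 h step was 1.47 ± 0.27 (limma, adjusted p = 0.00326). Efemp1, a fibulin, differed by -0.57 at 3 h, -1.18 at 6 h and 0.84 at 48 h. The differences of 48 h from 3 h and from 6 h were not tested in these genes. Groups of 3 arrays were not searched for single outlying arrays.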

How the results depend on the processing

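The mean difference of the 6 genes from the early shams at 3, 6 and 12 h stayed between -1.70 and -0.70 in every alternative run. With quantile normalization, which reshapes the spread of every array, the mean was -1.48 at 3 h and -1.70 at 6 h, against -1.04 and -1.16 as deposited. The same setting gave a mean of -0.85 for 48 h against its sham, -0.26 for 48 h against the early shams and 1.21 for 48 h against 12 h, and turned single 48 h differences from the early shams to -0.36 (Col1a1), -1.07 (Col1a2), -0.46 (Col3a1) and -0.86 (Ogn), and that of the 48 h sham in Col1a2 to -0.08. Lum at 48 h against the early shams was no longer called under it (0.51, adjusted p = 0.249). Col1a2 and Ogn, near 0 at 48 h against the early shams, also turned with array weights (-0.04 and -0.06) and with all 4 shams as control (-0.04 and -0.17), and over arrays left out ranged between -0.19 and 0.42 and between -0.25 and 0.27; Col1a1 at 48 h against its sham ranged between -0.28 and 0.03.

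Counts of all genes called moved more. At 3 h 83 became 198 with quantile normalization, 151 with only the 2 groups fitted, 564 with array weights and 9 with the 3 h sham alone. At 6 h 379 became 918, 796, 1024 and 70 under the same settings, and at 12 h 692 became 271 with only the 2 groups fitted and 77 with the 12 h sham alone. Injured 48 h against its sham, 0 as reported, gave 3 with the most variable probe set or the more variable genes alone, 4 with each probe set or quantile normalization, 1 with 2 groups or the robust prior and 23 with array weights. Against the early shams 1377 became 585 with 2 groups and 2406 with array weights. The 48 h sham, 1 gene, gave 2 with each probe set, 29 with quantile normalization, 70 with 2 groups and 4 with array weights. The 6 h minus 3 h count of 170 became 704, 551 and 1204 with quantile normalization, 2 groups and array weights, the 12 h minus 6 h count of 2 became 8, 0 and 8, and 12 with the more variable genes, and the 48 h minus 12 h count of 2180 became 1260 with quantile normalization and 388 with 2 groups.

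Other meningeal markers called at 3 h, 0 as reported, were 3 with quantile normalization, 6 with array weights and 2 with 2 groups, the more variable genes or all 4 shams. At 6 h 2 became 9 with quantile normalization, 2 groups or array weights, 4 with the more variable genes, 5 with all 4 shams, 1 with the robust prior and 0 with the 6 h sham alone. At 48 h 3 became 6 with array weights and 1 with all 4 shams, and the 8 collagen processing genes became 5 with 2 groups or all 4 shams.

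With each array left out in turn, genes called ran between 33 and 117 (3 h), 177 and 274 (6 h), 287 and 1230 (12 h), 1 and 129 (48 h against its sham), 482 and 2054 (48 h against early shams), 0 and 2 (48 h sham), 39 and 157 (6 h minus 3 h), 1 and 45 (12 h minus 6 h) and 1339 and 2442 (48 h minus 12 h). Meningeal markers called ran between 0 and 2, 0 and 2, 0 and 6 and 2 and 5 at 3, 6, 12 and 48 h, and collagen processing genes between 3 and 8. With a replicate block in the 12 injured arrays 170 genes became 79 (6 h minus 3 h), the 12 h minus 6 h count was 3 and the 48 h minus 12 h count 1657, and the 6 genes kept their 48 h minus 12 h differences. The cause was not tested for any of these changes beyond what a setting does by its construction. Without scaling of list genes, r over deviations turned sign for the choroid plexus (0.10), small leucine-rich proteoglycan (0.19) and fibrillar collagen (0.07) lists, and r over arrays for the TGF-beta and scar list (0.22). The medians of the 15 pairwise r, 0.80 over arrays and 0.63 over deviations, ran between 0.76 and 0.84 and between 0.54 and 0.69 with each array left out, were 0.78 and 0.59 with Spearman's rho and 0.68 and 0.63 without the 2 farthest arrays.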
